A study of Mus musculus with 11 samples.

Results

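The genes described here encode secreted proteins with which the gut epithelium meets microbes: the Reg family of C-type lectins (*Reg1*, *Reg3a*, *Reg3b*, *Reg3g* and *Reg4*), lysozyme (*Lyz1*), angiogenin 4 (*Ang4*), resistin-like beta (*Retnlb*) and intelectin 1 (*Itln1*). They were taken by gene symbol from a fixed list and are 9 of the 45777 genes of the table. They were followed in the small intestine and, as a contrast, in the skin of BALB/c mice that received 62.5 mg of cream per day on the shaved back and right ear at 8 to 10 weeks of age. The cream was Vaseline in control mice and Aldara, which contains 5% of the TLR7 ligand imiquimod (IMQ), in IMQ-treated mice, and the mice differed in no stated allele. The annotation gives 5 to 8 days of treatment and the methods 5 to 7, and which mouse received how many is not stated. The libraries were 3 control (replicates 7, 8 and 9) and 2 IMQ libraries (10 and 11) of the small intestine, and 3 control (1, 2 and 3) and 3 IMQ libraries (4, 5 and 6) of the skin, each of bulk tissue. Neither the segment of the small intestine, the sex of each mouse nor the pairing of the tissues of a mouse is given. Nothing states that the libraries came from separate mice, so the p-values measure only the spread between these libraries.

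Paneth cells sit at the base of the small intestinal crypts and store lysozyme, angiogenin 4 and the alpha-defensins in granules that they release into the lumen. REG3γ, the product of *Reg3g*, binds the peptidoglycan of Gram-positive bacteria and keeps them away from the villus surface, and REG3β acts mainly on Gram-negative bacteria. Both are made by enterocytes and Paneth cells and are known to rise with microbial signals through MYD88 and with the cytokine IL-22 through STAT3. *Reg1* is made in the pancreas and in the proximal gut, *Reg4* by enteroendocrine and secretory cells, *Itln1* by Paneth and goblet cells, and *Retnlb* mainly by goblet cells of the colon. In psoriatic skin, keratinocytes are known to switch on a REG3 lectin in response to IL-17.

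The total count was 44995414 to 58526384 per library. Of the 6 keratinocyte markers, the summed FPKM (fragments per kilobase of transcript, scaled to the depth of the library) was 0.469 to 1.39 in the small intestine and 4721 to 13108 in the skin, and that of 16 Paneth cell markers was 19142 to 28389 in the small intestine. Control replicate 2 of the skin stood apart. Over 118 genes with an FPKM of at least 100 in control small intestine and at most 20 counts in skin controls 1 and 3, it held a median of 1.01% of the intestinal level (quartiles 0.755% and 1.42%). The median was 0.0371% in IMQ replicate 5, 0.0140% in IMQ replicate 4 and 0 in IMQ replicate 6. It was also 0 in controls 1 and 3, where the genes were chosen for few counts. Each result that rests on control replicate 2 is therefore given with and without it.

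The Reg lectins *Reg3b*, *Reg3a*, *Reg1* and *Reg3g* lie within 1 cluster on chromosome 6 (chr6:78370885-78373466, chr6:78380709-78383839, chr6:78425983-78428668 and chr6:78466269-78468874 in mm10), together with *Reg3d* and *Reg2*. *Reg4* lies alone at chr3:98222138-98236748. The 250 bases before the RefSeq start (GRCm38.p6) are shown for *Reg3b*, *Reg3g* and their neighbor *Reg1*. Among the members on chromosome 6, *Reg3b* and *Reg3g* were the pair whose small intestine libraries had the same order from lowest to highest. The libraries of *Reg1* had another order. Capitals mark the letters TATAAA on either strand, as in the TATA box, and TTCNNNGAA, the palindrome that STAT factors bind.
Reg3b, plus strand of chr6:78370635-78370884: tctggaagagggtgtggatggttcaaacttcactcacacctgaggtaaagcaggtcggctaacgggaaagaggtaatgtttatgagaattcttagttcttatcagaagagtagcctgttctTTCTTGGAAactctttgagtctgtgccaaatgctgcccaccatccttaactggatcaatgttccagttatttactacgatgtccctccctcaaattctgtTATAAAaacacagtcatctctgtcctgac
Reg3g, minus strand of chr6:78468875-78469124: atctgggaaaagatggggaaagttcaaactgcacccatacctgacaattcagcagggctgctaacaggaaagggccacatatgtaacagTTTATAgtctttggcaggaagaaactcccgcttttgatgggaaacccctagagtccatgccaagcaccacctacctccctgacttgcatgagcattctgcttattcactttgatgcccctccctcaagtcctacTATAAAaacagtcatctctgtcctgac
Reg1, plus strand of chr6:78425733-78425982: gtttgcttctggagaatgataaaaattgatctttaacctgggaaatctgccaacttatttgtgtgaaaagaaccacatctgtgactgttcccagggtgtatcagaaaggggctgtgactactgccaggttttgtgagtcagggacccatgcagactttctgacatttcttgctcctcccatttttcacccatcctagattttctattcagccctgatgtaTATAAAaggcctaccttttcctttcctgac
TATAAA stood at position -29 from the start in *Reg3b*, -27 in *Reg3g* and -30 in *Reg1*, and *Reg3g* also had it on the other strand at position -161. TTCNNNGAA was found in *Reg3b* (TTCTTGGAA at position -129) and in *Ang4* (TTCCCTGAA at position -192), and in none of the windows of *Reg1*, *Reg3a*, *Reg3g*, *Reg4*, *Lyz1* and *Itln1*. Of all 32851 windows of the same 250 bases, 7.02% held TTCNNNGAA and 12.4% held TATAAA. These letters are a description of the C57BL/6J reference, and the mice were BALB/c.

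*Lyz1* (chr10:117287795-117292868) lies beside *Lyz2* (chr10:117277541-117282272), the lysozyme of macrophages. Because their values are read against each other in both tissues, the first 90 coding bases of the GENCODE transcripts (GRCm38) are shown with the 7 bases that differ in capitals.
Lyz1: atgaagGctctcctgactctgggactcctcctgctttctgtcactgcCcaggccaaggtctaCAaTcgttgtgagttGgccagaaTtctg
Lyz2: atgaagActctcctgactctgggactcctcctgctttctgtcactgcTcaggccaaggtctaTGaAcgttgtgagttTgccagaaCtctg
The coding sequences of the pair were 95.0% identical with 22 mismatches, and 24 of the 1164 windows of 100 bases in the *Lyz1* transcript, the length of 1 read, were also in *Lyz2*. *Reg3b* and *Reg3g* were 76.0% identical, *Reg1* and *Reg2* 78.8%, and *Ang4* and *Ang* 84.8%, and none of the members other than *Lyz1* shared a window of 100 bases with another gene's transcript. From the side of *Lyz2*, 24 of 1217 windows (1.97%) were also in *Lyz1*. The treatment of reads with several matches is not given in the sources used here, so reads could pass between *Lyz1* and *Lyz2*. This limit weighs most on *Lyz1* in the skin, where *Lyz2* was far higher.

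To set the levels of the members side by side, their FPKM was compared in control small intestine. *Lyz1* was the highest at 4526 ± 389 (SD, n = 3), followed by *Reg3b* at 2366 ± 1092, *Itln1* at 1534 ± 136 and *Reg3g* at 1376 ± 698. A second tier held *Ang4* at 200 ± 13.7, *Reg3a* at 148 ± 63.3, *Reg1* at 82.0 ± 106 and *Reg4* at 81.9 ± 29.3. *Retnlb* was nearly undetected, with 3, 4 and 13 counts in the control and 0 and 5 counts in the IMQ libraries. The ranges of neighbors in this order overlapped except at 3 places: *Lyz1* lay above *Reg3b* in each library, *Reg3g* above *Ang4*, and *Reg4* above *Retnlb*. By TPM instead of FPKM, *Reg4* was 7th and *Reg1* was 8th in control small intestine.

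**Figure D1:**
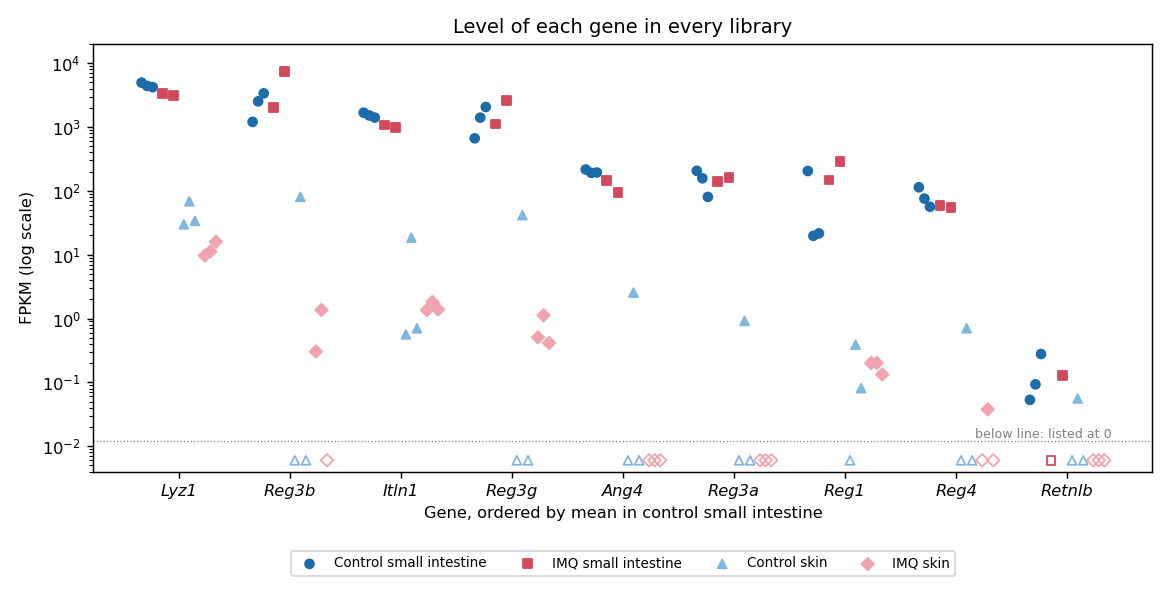
FPKM of the 9 genes on a log axis in each of the 11 libraries, 1 point per library, with open points below the dotted line for libraries listed at 0. *Lyz1*, *Reg3b*, *Itln1* and *Reg3g* were above 600 FPKM in each small intestine library, and in skin the point of control replicate 2 stands far above the other controls for *Reg3b*, *Reg3g* and *Itln1*.

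In IMQ-treated small intestine (n = 2), *Reg3b* was at 4760 ± 3899 FPKM, *Lyz1* at 3232 ± 223, *Reg3g* at 1850 ± 1041 and *Itln1* at 1027 ± 65.7. *Reg1* was at 218 ± 98.2, *Reg3a* at 151 ± 16.8, *Ang4* at 120 ± 37.7 and *Reg4* at 56.5 ± 2.92. The summed FPKM of the 9 genes was 9245 to 11397 in the controls and 8072 and 14755 in the IMQ libraries, so the groups overlapped.

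The main comparison asked whether these genes changed in the small intestine when IMQ was applied to the skin. *Reg1*, *Reg3a*, *Reg3b* and *Reg3g* had higher means and *Reg4*, *Lyz1*, *Ang4* and *Itln1* lower means in IMQ-treated mice, and none passed the test. Of the 9 members, 8 had a count in each small intestine library and entered edgeR's quasi-likelihood test, with p-values adjusted over 19965 genes by the Benjamini-Hochberg method, and 0 were called at an adjusted p under 0.05, against a background of 2.95% of all genes (2.77% higher and 0.17% lower). At an unadjusted p under 0.05 there were 2, *Ang4* and *Itln1*, both lower. DESeq2 called these same 2, against 6.04% of all genes, and limma-voom called 0, with 3 at an unadjusted p under 0.05. The median log2 fold change of the 8 genes was -0.18, beside -0.02 over all genes tested.

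The lectins of the chromosome 6 cluster varied most. The normalized read count (the count put on the scale of the average library of its tissue) of *Reg1* was 9266, 829 and 1003 in the controls 7, 8 and 9 and 6546 and 13695 in the IMQ libraries 10 and 11. Control 7 thus lay among the IMQ libraries, and the other controls lay far below all 3. The fitted log2 fold change was 1.45 with a standard error (SE) of 0.98 and an adjusted p of 0.659, and the 95% interval reached from -0.84 to 3.75. Without control 7 it was 3.47 with an adjusted p of 0.00268, against a background of 3.94% of genes called, so that 1 library decided this call. Within the controls alone *Reg1* spanned 11.2-fold, and over the 5 libraries 16.5-fold.

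*Reg3b* and *Reg3g* had a different order of libraries. *Reg3b* had normalized counts of 53624, 104442 and 154266 in the controls and 87124 and 353052 in the IMQ libraries. *Reg3g* had 30199, 59070 and 96038 in the controls and 49344 and 123736 in the IMQ libraries. For both genes control 7 was the lowest and IMQ replicate 11 the highest library, and IMQ replicate 10 lay between the controls 7 and 8. The log2 fold change was 1.08 for *Reg3b* (SE 0.63, adjusted p = 0.586) and 0.49 for *Reg3g* (SE 0.53, adjusted p = 0.815). Without IMQ replicate 11 both turned, to -0.26 and -0.33. The ratio of *Reg3b* to *Reg3g* in FPKM was 1.64 to 1.81 in libraries 7 to 10 and 2.91 in IMQ replicate 11.

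*Reg3a*, a closer relative of *Reg3b* (73.9% identical in coding sequence) than of *Reg1* (59.1%), had normalized counts of 10119, 7180 and 4057 in the controls and 6663 and 8426 in the IMQ libraries. Its groups overlapped, with a log2 fold change of 0.08 (SE 0.34, adjusted p = 0.964) and an interval from -0.72 to 0.89. *Reg3d* was low, at 0.356 to 1.13 FPKM, and had a log2 fold change of 0.72 (SE 0.43, adjusted p = 0.605). *Reg2* had 4 counts in control 8 and none in the other small intestine libraries.

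**Figure D2:**
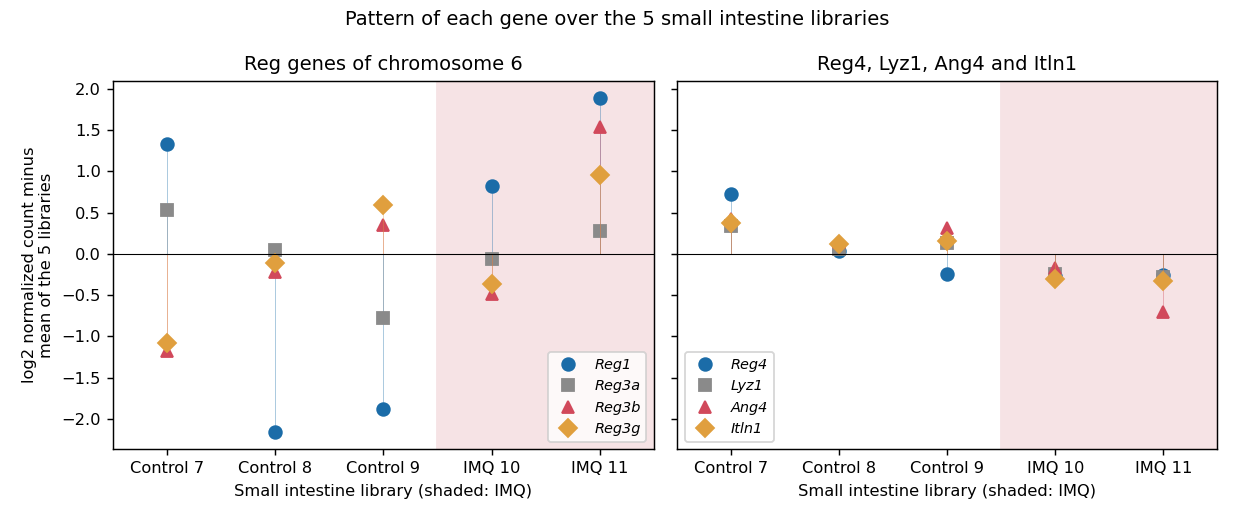
Each gene's log2 normalized count minus its mean over the 5 small intestine libraries, with the IMQ libraries shaded. On the left, *Reg1* is high in control 7, IMQ 10 and IMQ 11, while *Reg3b* and *Reg3g* are lowest in control 7 and highest in IMQ 11. On the right, *Reg4*, *Lyz1*, *Ang4* and *Itln1* are lower in both IMQ libraries than in the 3 controls.

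The remaining members, *Reg4* and the Paneth and goblet cell products *Lyz1*, *Ang4* and *Itln1*, shared a direction. *Lyz1* had normalized counts of 368435, 303753 and 321154 in the controls and 245732 and 240654 in the IMQ libraries. *Itln1* had 112176, 94410 and 96653 in the controls and 70128 and 69174 in the IMQ libraries. In these and in the other two genes both IMQ libraries were below each control, so that 4 of the 8 tested members did not overlap between the groups, all lower, against a background of 13.9% of all genes in that direction and 29% in either. The libraries of the IMQ group differed by 1.02-fold in *Lyz1* and 1.01-fold in *Itln1*.

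*Ang4*, a ribonuclease with microbicidal activity, had normalized counts of 8825, 7243 and 8124 in the controls and 5843 and 4020 in the IMQ libraries. It had the smallest p of the members, with a log2 fold change of -0.71 (SE 0.19, 95% interval -1.16 to -0.26) and an adjusted p of 0.139. That of *Itln1* was -0.54 (SE 0.22, adjusted p = 0.385), that of *Lyz1* -0.45 (SE 0.31, adjusted p = 0.676) and that of *Reg4* -0.49 (SE 0.27, adjusted p = 0.568). In DESeq2 the adjusted p was 0.0208 for *Ang4* and 0.00856 for *Itln1*, whereas over the other models and the libraries left out in turn neither was called. *Reg4* had normalized counts of 6773, 4170 and 3451 in the controls and 3397 and 3427 in the IMQ libraries, so its lowest control lay just above them.

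The other genes of the Paneth cell were read beside these members. Of 16 Paneth cell markers 13 were tested, of which 12 had a negative and 1 a positive log2 fold change and 0 were called by edgeR, with a median of -0.42 beside -0.02 over all genes. At an unadjusted p under 0.05 there were 6, of which *Mptx2*, a mucosal pentraxin, was the only one with a positive value (0.73, adjusted p = 0.147). *Nupr1* (-0.90) was also among the 6, and the skin libraries held 191% to 582% of its level in control small intestine. DESeq2 called 4 of the 13, 1 higher and 3 lower. *Mmp7*, the protease that activates the pro-defensins, had a log2 fold change of -0.46 (SE 0.16, adjusted p = 0.273), with 8457, 9806 and 11080 normalized counts in the controls and 6669 and 7540 in the IMQ libraries. The summed FPKM of the list was 24661 to 28389 in the controls and 19142 and 21601 in the IMQ libraries, without overlap. In bulk tissue, fewer cells of a type and less RNA per cell cannot be told apart.

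Goblet cell genes had the same sign. Of 8 goblet cell markers all 8 were tested and had negative values, with a median of -0.45 on the log2 scale, and 1 was called lower: *Agr2*, the disulfide isomerase needed to fold mucin, at -0.92 (SE 0.14, adjusted p = 0.0131). It lost its call without either IMQ library and in 1 fit of all 11 libraries, where the adjusted p was 0.901. Of 8 transcription factors and signals of the secretory lineage, 7 had negative values and 0 were called by edgeR or DESeq2, with 1, *Spdef*, at an unadjusted p under 0.05 (-0.47, adjusted p = 0.235). The 8 enterocyte markers were split, with 6 negative and 2 positive values and 0 called by either tool, and *Alpi* alone had an unadjusted p under 0.05.

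**Figure D3:**
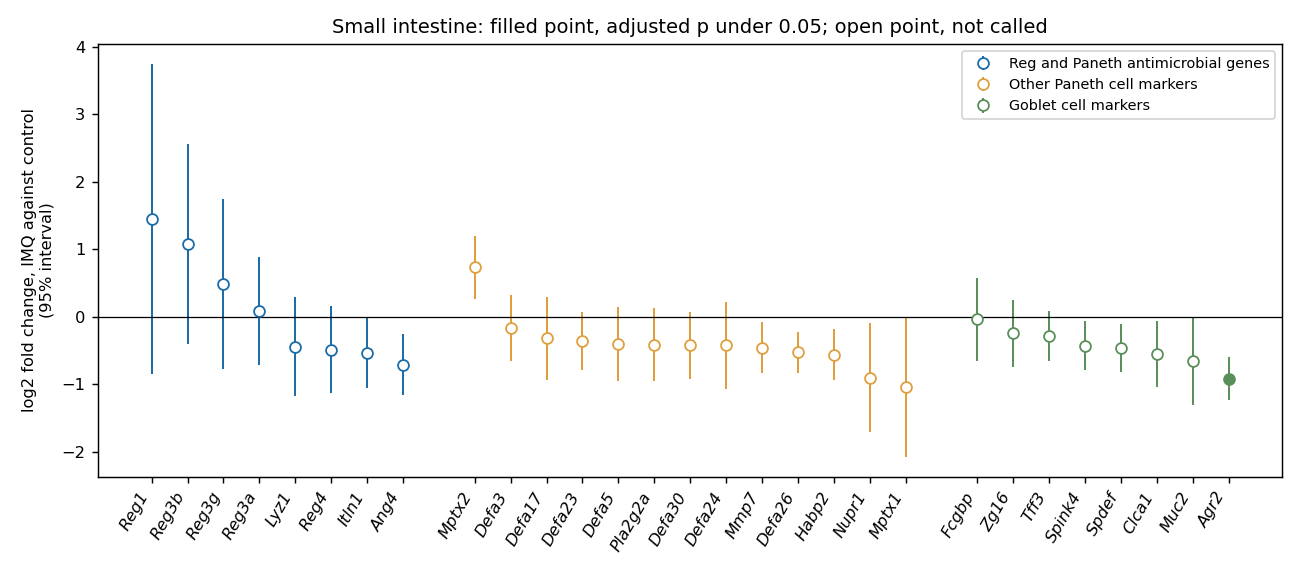
log2 fold change of IMQ-treated against control small intestine with its 95% interval from edgeR's quasi-likelihood test, for the 8 tested members, 13 other Paneth cell markers and 8 goblet cell markers. *Agr2* is the only filled point, the sign of a call, and the intervals of *Reg1*, *Reg3b* and *Reg3g* are the widest among the members.

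Because *Reg1* differs along the gut, markers of position were set beside it. The summed FPKM of 8 genes of the proximal small intestine was 6834, 2562 and 4012 in the controls 7, 8 and 9 and 8568 and 10915 in the IMQ libraries 10 and 11. The 3 libraries with high *Reg1* were thus the 3 with the highest sum. *Onecut2*, a factor of the duodenum, had 2794, 683 and 1653 counts in the controls and 4339 and 4750 in the IMQ libraries. The summed FPKM of 4 distal genes was 185, 204 and 266 in the controls and 143 and 171 in the IMQ libraries, and was lowest in the 3 libraries with high *Reg1*. The 8 proximal genes had 5 positive log2 fold changes, with *Onecut2* among them, and 3 negative ones, with a median of 0.62. The negative values were those of *Gata4* (-0.01), *Lct* (-0.04) and *Cybrd1* (-0.44), so the genes of the list did not all go the same way. None of the 8 proximal and 4 distal genes was called by edgeR, with 4 and 1 at an unadjusted p under 0.05, and DESeq2 called 2 proximal genes higher. Their part in the difference of *Reg1* was not tested.

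Of 21 pancreatic acinar genes, 9 were at 0 in each small intestine library, and the summed FPKM of the list was 85.1 to 111 in the controls and 71.6 and 85.2 in the IMQ libraries. It was not higher in the libraries with high *Reg1*, since it was 111 in control 7, 108 in control 8 and 71.6 in IMQ replicate 11. Of its 6 tested genes 0 were called by edgeR or DESeq2, and 0 had an unadjusted p under 0.05. The 5 colon markers summed to 23.3 FPKM in control 7 and 24.2 in IMQ replicate 11 against 3.13 to 3.92 in the other 3 libraries, and 3 of the 5 were at 0 throughout. The sum was thus high in 2 of the 3 libraries with high *Reg1*.

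The genes whose pattern over the 5 small intestine libraries was most like that of a member were found by the root mean square difference of centered log2 normalized counts, among 15029 genes. For *Reg1* these were *Akp3*, an intestinal alkaline phosphatase (0.42), *Slc46a1*, the proton-coupled folate transporter (0.47), and *Sh2d6* (0.51). *Slc46a1* had normalized counts of 4649, 813 and 1266 in the controls and 6837 and 9906 in the IMQ libraries. For *Reg3g* they were *Gm8810* (0.20), the complement gene *C3* (0.22) and the class I gene *H2-Bl* (0.22). *C3* had normalized counts of 1191, 2838 and 3537 in the controls and 2599 and 4421 in the IMQ libraries. For *Reg4* they were *Stac2* (0.07), *Myl4* (0.08) and *Tppp* (0.08), and for *Lyz1* they were *Zfp708* (0.04), *H3f3c* (0.04) and *Morc4* (0.04). *Lyz1*, lower in both IMQ libraries than in the controls, had 127 of the 15029 genes within 0.1 of it. *Reg4* had 5, and *Reg1* and *Reg3g* had 0. The members' own root mean square spreads were 0.23 for *Lyz1*, 0.38 for *Reg4*, 0.72 for *Reg3g* and 1.69 for *Reg1*. Because 0.1 is an absolute difference, these counts cannot show which pattern was more common.

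The cytokine genes upstream of the Reg3 lectins were scarce in the small intestine. *Il22* had 7, 0 and 6 counts in the controls and 0 in both IMQ libraries, and *Il17a* had 4, 11 and 9 counts in the controls and 5 and 0 in the IMQ libraries. *Il6* had 0, 3 and 0 counts in the controls and 6 and 11 in the IMQ libraries, and *Il23a* had 6, 0 and 3 counts and then 8 and 6. None of these was tested there, because a library had no count. A list of 23 genes of IL-22, IL-17 and IL-6 signalling also held *Il1b*, *Il18* and *Myd88*. Of the 23, 17 were tested, of which 12 had positive and 5 negative values, with a median of 0.17. None of the tested receptors of IL-22 and IL-17 was called. In the list 3 genes were called, all higher, against 2.77% of all genes called higher. The called genes were *Il1b* at 3.16 (SE 0.38, adjusted p = 0.00519), *Il6ra*, the receptor of IL-6, at 1.50 (SE 0.17, adjusted p = 0.00368), and *Myd88*, the adaptor of the Toll-like receptors, at 0.87 (SE 0.11, adjusted p = 0.00607). *Myd88* lost its call without either IMQ library.

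Among the ligands that were not called, *Il12b*, *Osm*, *Il18* and *Lif* had positive values of 1.29, 0.66, 1.02 and 0.03, and *Il11* a value of -0.50. Among the receptors, *Il17ra* (0.40), *Il22ra1* (0.17) and *Il6st* (0.16) had positive values, and *Il17rc* (-0.77), *Il17re* (-0.23), *Il10rb* (-0.02) and *Il22ra2* (-2.05), the soluble binding protein of IL-22, had negative ones. The last had an adjusted p of 0.0652 and was called lower in 3 of 8 models. *Stat3* and *Socs3* were not called, at 0.08 and 0.80. Of 6 tested genes of IL-4, IL-13 and alarmin signalling, which act on *Retnlb* and goblet cells, 0 were called by edgeR, with 2 at an unadjusted p under 0.05 (*Il4ra* at 0.50 and *Il33* at -0.48), and DESeq2 also called 0.

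Of 17 other epithelial antimicrobial genes 14 were tested and 1 was called higher, the acute-phase gene *Saa3*, at 5.02 (SE 0.87, adjusted p = 0.0275), with 9, 9 and 38 counts in the controls and 179 and 935 in the IMQ libraries. It lost its call without controls 8 or 9 or IMQ replicate 11. The list had 5 positive and 9 negative values and a median of -0.30. Myeloid cell markers differed more, with 7 of 7 tested values positive and 5 called higher, led by *Cd68* (2.54), *Adgre1* (2.16), *Itgam* (1.88) and *Ptprc* (1.71). Their summed FPKM was 47.3 to 64.0 in the controls and 148 and 157 in the IMQ libraries, and the part of these cells in the members' values was not tested.

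The lysozyme of those cells, *Lyz2*, had normalized counts of 9158, 6771 and 8732 in the controls and 7725 and 9350 in the IMQ libraries of the small intestine, with a log2 fold change of 0.05 (SE 0.18, adjusted p = 0.952). The ratio of *Lyz1* to *Lyz2* in FPKM was 30.7 to 37.5 in the controls and 21.5 and 26.6 in the IMQ libraries. *Ang*, the relative of *Ang4* that is expressed in many tissues, had a log2 fold change of -0.24 (SE 0.23, adjusted p = 0.780).

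The skin served as the contrast tissue. In edgeR's fit of all 11 libraries 8 members could be tested. Each had a higher mean in control small intestine than in control skin. *Reg3a*, *Reg3b*, *Reg3g*, *Reg4* and *Ang4* had 0 counts in skin controls 1 and 3, and *Reg1* had 0 and 4. These passed the filter on low counts through the libraries where they were high, so no call is drawn from their fits. *Lyz1* and *Itln1* were called higher, against a background of 29.1% of 21647 genes called higher and 60.1% called in either direction. Their log2 fold changes were 7.11 (SE 0.45, adjusted p = 8.57e-07) and 8.22 (SE 1.39, adjusted p = 0.000534). With a count required in every library these were the 2 members tested, and both were called higher. Both were also called in each of the 11 fits that left out 1 library. DESeq2 gave no adjusted p for 2 of the 8. The size of the members' differences depended on control replicate 2. Without it, *Reg3b*, *Reg3g*, *Ang4*, *Reg3a* and *Reg4* had no count in control skin and were at least 50372-fold, 29887-fold, 3906-fold, 3449-fold and 2325-fold higher in small intestine, against a floor of 3 counts per library. *Reg1*, with 0 and 4 counts there, exceeded that floor in 1 library and was 2753-fold higher, a value that rests on those 4 counts. *Itln1* was 3271-fold and *Lyz1* 204-fold higher.

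In control replicate 2 of the skin, 9 of the 9 members had counts. *Reg3b* had 3150 counts there and 0 in controls 1 and 3, and *Reg3g* had 1658 counts there and 0 in the same controls. Relative to control small intestine, *Reg3b* was at 3.41% and *Reg3g* at 3.03%, above the upper quartile of the 118 intestinal genes. *Lyz1* (1.52%) lay just above that quartile. Unlike the 118 genes, which were chosen for few counts in controls 1 and 3, it was also at 0.661% and 0.748% there. *Ang4* (1.27%), *Itln1* (1.21%) and *Reg4* (0.859%) lay between the quartiles, and *Reg3a* (0.620%) and *Reg1* (0.473%) lay below the lower quartile. *Reg1*, *Reg3a* and *Reg4* thus had 16, 40 and 37 counts, and *Ang4* 92.

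**Figure D4:**
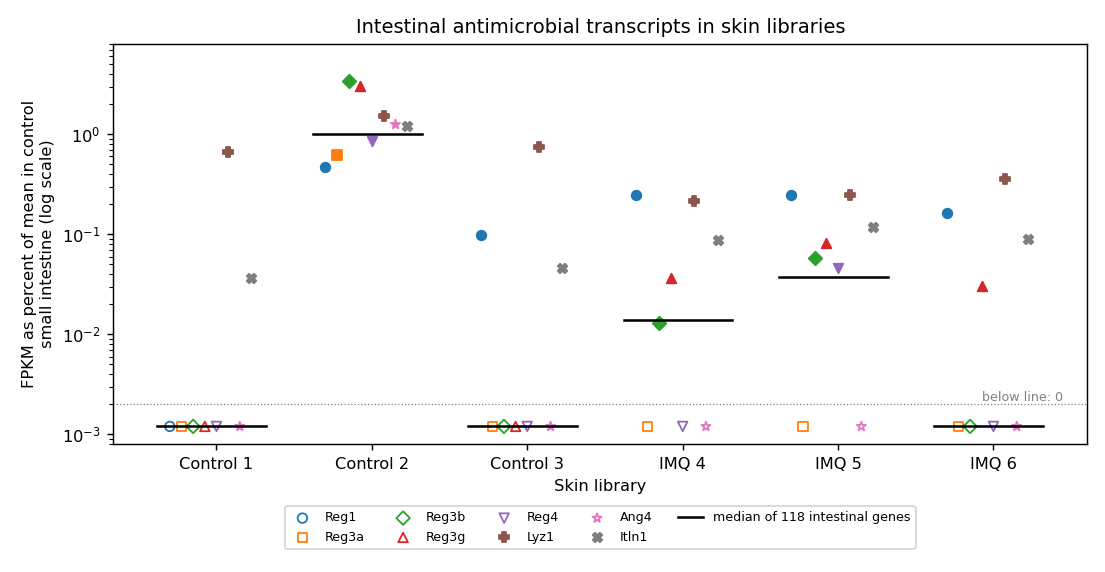
FPKM of 8 members in each skin library as a percent of their mean in control small intestine, on a log axis, with open points for 0 and a black line for the median of 118 intestinal genes. In control 2 *Reg3b* and *Reg3g* lie farthest above the line at 1.01%. *Lyz1*, *Ang4* and *Itln1* lie above it too, and *Reg4*, *Reg3a* and *Reg1* lie below it. *Lyz1* is the only member above 0.5% in controls 1 and 3.

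With all 6 skin libraries, *Lyz1* was the only member called. It had 1979, 4873 and 2214 normalized counts in the controls 1, 2 and 3 and 700, 781 and 1085 in the IMQ libraries 4, 5 and 6, without overlap. Of the 9 members, 2 had a count in each skin library, and 1 of these, *Lyz1*, was called lower, at a log2 fold change of -1.82 (SE 0.38, adjusted p = 0.0374), against a background of 2.69% of 20512 genes called lower, 4.05% higher and 6.74% in either direction. The background of genes whose IMQ libraries all lay below the controls was 13.3%. The call held in 7 of 8 models and in 2 of the 6 fits that left out 1 library, where the adjusted p reached 0.153, and it was lost without control 1 or any 1 of the IMQ libraries. Without control 2 the log2 fold change was -1.29 with an adjusted p of 0.0157.

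*Lyz2* went the other way in the same libraries. It had 18465, 17556 and 13454 normalized counts in control skin and 29765, 25420 and 36126 in IMQ-treated skin, at a log2 fold change of 0.88 (SE 0.19, adjusted p = 0.0442), a call that was lost in each of the 6 fits that left out 1 library and kept in 5 of 8 models. The ratio of *Lyz1* to *Lyz2* in FPKM was 0.0895 to 0.232 in the controls and 0.0196 to 0.0257 in the IMQ libraries. As 1.97% of the *Lyz2* windows of 100 bases were shared with *Lyz1*, reads of *Lyz2* could form much of the *Lyz1* level in IMQ-treated skin. Their part was not tested. Of 7 tested myeloid cell markers in the skin all 7 had positive values and 5 were called higher, led by *Itgam* (2.94), *Adgre1* (2.88), *Cd14* (2.14) and *Fcgr1* (1.65).

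**Figure D5:**
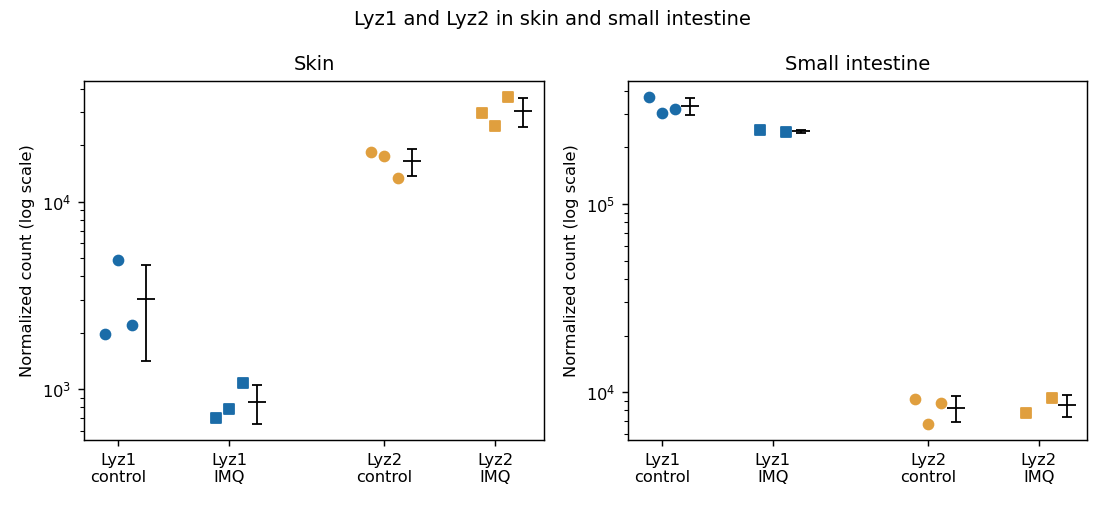
Normalized counts of *Lyz1* and *Lyz2* on log axes in skin and small intestine, 1 point per library, with the mean and SD in black (n = 3, and n = 2 for IMQ-treated small intestine). In skin the *Lyz1* points of the IMQ libraries lie below and the *Lyz2* points above those of the controls, and in small intestine *Lyz1* exceeds *Lyz2* in each library.

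*Itln1*, the other tested member, had 36.2, 1186 and 43.6 normalized counts in control skin and 89.6, 115 and 90.1 in IMQ-treated skin. With all libraries its log2 fold change was -2.10 (SE 1.28, adjusted p = 0.383). Without control 2 it turned to 1.30 with an adjusted p of 0.0323, against a background of 12.1% of genes called. The IMQ libraries held 0.0881% to 0.118% of the intestinal level of *Itln1*, and controls 1 and 3 held 0.0367% and 0.0457%.

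*Reg3g* was absent from controls 1 and 3 of the skin and had 21, 47 and 17 counts in the IMQ libraries 4, 5 and 6. These were at least 11.2-fold higher than those 2 controls, against the floor of 3 counts per library. In a fit without control 2 that kept genes by edgeR's filterByExpr, an alternative chosen after seeing the data, *Itln1* was called higher (1.31 on the log2 scale, adjusted p = 0.0254) and *Lyz1* was called lower (-1.28, adjusted p = 0.0125), against a background of 14.7% of 19894 genes (6.74% higher and 8% lower). *Reg3g* and *Reg3b*, the latter with 13, 56 and 0 counts in the IMQ libraries, passed that filter only through the IMQ libraries, so no call is drawn from their fits.

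IMQ replicate 6 had 17 counts of *Reg3g* and 0 of *Reg3b*, while the median of the 118 intestinal genes was 0 in it. In IMQ replicates 4 and 5 *Reg3g* stood at 0.0368% and 0.0816% of its intestinal level, beside medians of 0.0140% and 0.0371%. In IMQ replicate 6 it stood at 0.0301%. The upper quartiles of the 118 genes were 0.0403%, 0.137% and 0.0346% in IMQ replicates 4, 5 and 6, so *Reg3g* lay under the upper quartile in each. The ratio of *Reg3b* to *Reg3g* in FPKM was 0.601, 1.21 and 0 in the IMQ libraries of the skin, below the 1.64 to 2.91 of the small intestine, and 1.93 in skin control 2. Whether intestinal RNA had a part in the counts of *Reg3g* was not tested.

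*Reg1* had 0, 16 and 4 counts in control and 9, 9 and 6 in IMQ-treated skin. *Reg3a* and *Ang4* had 0 in each skin library other than control 2, and *Reg4* had 0 in each other than control 2 with 37 and IMQ replicate 5 with 3 counts. *Retnlb* had 3 counts in control 2 and 0 in the other skin libraries. At totals of 44995414 to 52492181 counts, levels under 3 counts per library could not be detected.

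In IMQ-treated skin the IL-17 genes had counts that control skin lacked. *Il17a* had 0 counts in each control and 80, 71 and 243 in the IMQ libraries, *Il17f* had 0 and then 118, 111 and 554, and *Il22* had 0 and then 14, 0 and 32. The 19 genes of the IL-22, IL-17 and IL-6 signalling list tested in the skin had a median of 0.54 beside -0.01 over all genes. Of these 19, 10 were called, all higher, against 4.05% of all genes called higher. They were the ligands *Il1b* (2.84), *Osm* (2.50), *Il23a* (2.49), *Il6* (2.41) and *Lif* (1.92), the receptors *Il10rb* (0.71) and *Il17ra* (0.54), and *Socs3* (1.52), *Myd88* (0.94) and *Stat3* (0.74). Of the ligands and receptors that were not called, *Il12b*, *Il18*, *Il17rc* and *Il6ra* had positive and *Il11*, *Il22ra1*, *Il22ra2*, *Il17re* and *Il6st* negative values. Of 11 other epithelial antimicrobial genes tested in the skin 5 were called higher: *S100a8* (10.16), *S100a9* (9.46), *Saa3* (6.59), *Lcn2* (5.22) and *Slpi* (4.48). Of 9 tested genes of IL-4, IL-13 and alarmin signalling 3 were called higher: *Tslp* (2.89), *Il33* (2.04) and *Il4ra* (0.90). The intestinal lists were hardly testable in the skin, where 1 of 16 Paneth, 3 of 8 goblet and 3 of 8 enterocyte markers had a count in each library. The Paneth marker was *Nupr1*, which was higher in skin than in control small intestine.

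To ask whether the change differed between the tissues, the interaction of tissue and treatment was tested in 1 fit of all 11 libraries. Of the 8 members tested, 0 were called by edgeR, against a background of 1.61% of 21647 genes, with 1, *Lyz1*, at an unadjusted p under 0.05. DESeq2 gave no adjusted p for 2 of the 8, *Reg1* and *Itln1*, and called 0 of the other 6, with 1 at an unadjusted p under 0.05. *Lyz1* had negative values in both tissues, -0.45 in small intestine and -1.82 in skin, and the interaction was 1.39 on the log2 scale (SE 0.52, adjusted p = 0.234). In edgeR all 8 interaction values were positive with control 2 of the skin. Without it *Reg3a* and *Ang4* had no count in any skin library and so have no direction. *Reg3b*, *Reg3g* and *Reg4* had no count in the remaining skin controls and passed the filter through other libraries, so no direction is drawn for them. *Lyz1* stayed positive. *Reg1*, with 0 and 4 counts in those controls, and *Itln1* then had negative values. *Itln1* was called at -1.86 (adjusted p = 0.00742), against 4.11% of genes.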

How the data were processed

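RNA of skin and small intestine was sequenced as 100-bp paired-end reads, aligned to mm10 with HISAT2 2.1.0 and quantified with StringTie 2.1.3b, per the labels and methods. Trimmomatic and bcl2fastq 2.20.0 are also named in the submitters' processing notes. The authors deposited whole-number read counts without normalization, and the same deposited table holds the FPKM and the TPM that the authors computed. The tool that made the counts and the treatment of multiply matching reads are not given in the sources used here. Samples were assigned by their labels. The members, gene lists and tests were chosen with earlier results of these data known.

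Genes with no library of the tissue under 1 count were kept, normalized by relative log expression and tested with edgeR 4.0.16 (glmQLFit and glmQLFTest, R 4.3.3) with Benjamini-Hochberg adjustment, and called at an adjusted p under 0.05. The interaction and the contrast of the tissues used 1 model of 4 groups and filterByExpr. The SE is the log2 fold change divided by the square root of F. Alternatives were TMM, DESeq2 1.42.0, limma-voom (limma 3.58.1), filterByExpr, no filter, limma on log2(FPKM + 0.01) and log2(FPKM + 1), 1 fit of all 11 libraries, a count in every library, TPM, and each library left out in turn. Named were all members, up to 4 called genes of each other list, the tested ligands and receptors, *Lyz2*, *Reg2*, *Reg3d*, *Ang*, *Mmp7* and the 3 genes most like *Reg1*, *Reg3g*, *Lyz1* and *Reg4* among those whose normalized counts averaged 50 or more. Other genes named for an unadjusted p, for their counts or as position markers were picked after their values were seen, as was the search for TATAAA. Bounds and floors cover counting error only. The fits were tested on simulated data. Positions are from the GRCm38 annotation, to which 45679 of the 45777 genes were matched by Entrez identifier.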

Additional observations from a re-analysis of the deposited data

How the results depend on the processing

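No paired analysis was possible because the replicate numbers run from 1 to 11 without repeats and the labels do not tie tissues to a mouse. In the small intestine DESeq2 called 1206 genes in place of 588 and 2 members lower in place of 0. Leaving out 1 library gave 294 to 801 genes and 0 to 1 members called higher, and log2 fold changes of -0.20 to 0.43 for *Reg3a*, -0.26 to 1.77 for *Reg3b* and -0.33 to 1.01 for *Reg3g*. In the skin DESeq2 called 3030 genes in place of 1382, and log2(FPKM + 1) gave 894 genes and 0 members lower. Leaving out 1 library gave 258 to 2521 genes, 0 to 1 members higher and 0 to 1 lower, and -2.64 to 1.30 for *Itln1*. Without control 2 and with filterByExpr, chosen after seeing the data, 2932 genes and 2 members higher were called, with *Itln1* at 1.31. The other of the 2, *Reg3g*, had no count in the remaining controls and entered only through the IMQ libraries.

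In the interaction, 348 genes became 1414 with DESeq2 and 84 to 885 with 1 library left out, with 0 to 1 members lower. Its log2 values then ranged from -0.74 to 3.09 for *Reg1*, -6.38 to 8.45 for *Reg3b*, -7.28 to 5.46 for *Reg3g*, -3.62 to 5.99 for *Reg4*, -0.73 to 7.73 for *Ang4* and -1.86 to 2.15 for *Itln1*. The lower end for *Ang4* comes from the fit without skin control 2, where it had no count in skin, and carries no direction. Those for *Reg3b*, *Reg3g* and *Reg4* come from the same fit. These genes had no count in the remaining skin controls, so no direction is drawn from them. With limma-voom *Reg3g* was at -1.87 and *Itln1* at -0.33. Between the control tissues, a count in every library left 2 members to test, both called higher. By TPM the rank of *Reg1* in control small intestine was 8 and that of *Reg4* was 7. The causes of these shifts were not tested, other than the loss of genes or samples that each setting brings. With 2 IMQ libraries of the small intestine the intervals of *Reg1*, *Reg3b* and *Reg3g* are wide, and a lone library left in a group is assumed to vary like the others.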
